A study of Mus musculus with 4 samples.

Results

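The cells described here were classical monocytes of the mouse lung, selected by measured transcripts from 4 single-cell RNA-Seq libraries, and 109 of 15428 barcodes met the selection. The libraries came from young (2 to 3 months) and aged (22 months) male C57BL/6 mice, an inbred laboratory strain, that were either naive and nonventilated or mechanically ventilated for 3 hours. Each library pooled the left lobes of 3 mice, so every group was a single sample and no comparison between groups could be tested. The growth protocol entered for each of the 4 groups gives a diet gradually reduced to 70% of ad libitum intake. Ventilated mice received a tidal volume of 20 mL/kg, up to a fixed maximum volume, at 150 breaths per minute. They were under ketamine, medetomidine and buprenorphine, with vascular lines and pure oxygen. Nonventilated mice received none of these, so the effects of ventilation, anesthesia, surgery and oxygen cannot be told apart. The paper reports that aged mice were in general heavier than young mice. The maximum could therefore give aged mice less volume per kg. Where 4 values stand in a row, they follow the order young without ventilation, young with ventilation, aged without it and aged with it. Intervals given below are 95% intervals of counting error only and hold no spread between mice. Those of UMI counts and their ratios also hold no spread between cells.

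Classical monocytes leave the bone marrow through the chemokine receptor CCR2 and enter inflamed tissue along a gradient of its ligand CCL2. They carry high surface Ly6C and give rise both to nonclassical monocytes, which patrol the vessel wall, and to tissue macrophages and monocyte-derived dendritic cells. In injured lung they are known as an early source of IL-1β, TNF and chemokines and as precursors of recruited macrophages.

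Barcodes entered when they held 200 to 7500 genes and at most 10% mitochondrial unique molecular identifiers (UMIs, one per captured RNA molecule), which left 11846. Of these, the selection kept cells with at least 2 UMIs of *Ly6c2*, at least 1 of *Csf1r*, the receptor for CSF1, and any UMI of *Ccr2*, *F13a1* or *Vcan*. It removed cells with a UMI of the nonclassical monocyte genes *Adgre4*, *Cd300e* or *Treml4*, of *Cxcr2* (neutrophils), *Cd3e* (T cells), *Cdh5* (endothelium) or *Flt3* (dendritic cells), or with 10 or more UMIs of the complement genes *C1qa*, *C1qb* and *C1qc* (macrophages). These 15 genes chose the cells, so their levels are given as a description only. At the border of the selection, 1, 2, 0 and 3 cells had met every other condition with 1 UMI of *Ly6c2*. Just inside it, 3, 1, 1 and 2 cells held exactly 2 UMIs, with *F13a1*, *Vcan* and *Ccr2* together at a median of 21, 21, 9 and 70 UMIs per cell, against 3 and 8 UMIs in the young and 29 UMIs in the aged ventilated cells just outside. No barcode of the 109 cells occurred in another library, although 23 of the 15405 distinct barcodes occurred in more than 1.

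Classical monocytes were more frequent in both ventilated libraries. The selection found 13 of 2942 cells in the young nonventilated library (0.442%, exact Clopper-Pearson interval 0.235–0.754%) and 42 of 3327 in the young ventilated library (1.26%, 0.911–1.70%). In aged mice it found 11 of 3025 cells without ventilation (0.364%, 0.182–0.650%) and 43 of 2552 with ventilation (1.68%, 1.22–2.26%). The ventilated share was 2.86 times the nonventilated share in young mice (1.5–5.8) and 4.63 times in aged mice (2.35–9.96). The aged to young ratio was 0.823 (0.334–1.99) without ventilation and 1.33 (0.852–2.09) with it, and both intervals included 1. Nonclassical monocytes numbered 153, 207, 393 and 204 cells, and classical cells made up 7.83%, 16.9%, 2.72% and 17.4% of both monocyte classes. Against that denominator, chosen for the ages after the data were seen, the aged to young ratio was 0.348 (0.141–0.841) without ventilation and 1.03 (0.659–1.62) with it. A share of sequenced cells does not separate more classical monocytes from fewer of the other cells.

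The size of the ventilated excess depended on the limits set on cells. With 200 to 5000 genes and UMIs within the 93rd percentile, 19 young and 24 aged ventilated cells but 0 nonventilated cells dropped out. The shares were then 0.535%, 0.836%, 0.463% and 0.969%, and both ratios had intervals that included 1, at 1.56 in young (0.759–3.36) and 2.09 in aged mice (0.946–4.87). Before the limit on *Flt3*, a cytokine receptor of dendritic cells and their precursors, the selection held 25, 42, 16 and 45 cells, so that this limit removed 12 of 25 cells from the young nonventilated library and none from the young ventilated one. Without the limit on *Adgre4*, *Cd300e* and *Treml4* it held 52, 101, 38 and 108 cells, and without either limit 82, 104, 53 and 113. The ratio of ventilated to nonventilated shares was 1.49 in young (0.885–2.54) and 3.33 in aged mice (1.85–6.32) without the *Flt3* limit. It was 1.72 (1.22–2.45) and 3.37 (2.31–5.01) without the limit on *Adgre4*, *Cd300e* and *Treml4*, and 1.12 (0.832–1.52) and 2.53 (1.81–3.57) without either limit. The aged to young ratio of the ventilated shares was 1.39 (1.05–1.85) without the limit on *Adgre4*, *Cd300e* and *Treml4* and 1.42 (1.08–1.87) without either limit, where that of the nonventilated shares was 0.629 (0.436–0.899). With every barcode thinned to 3000 UMIs before the selection, the ventilated shares were 1.72% in young and 1.52% in aged mice, the opposite order, at a ratio of 0.883 (0.55–1.4). The selections without the limit on *Adgre4*, *Cd300e* and *Treml4* were chosen after the data were seen.

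**Figure D1:**
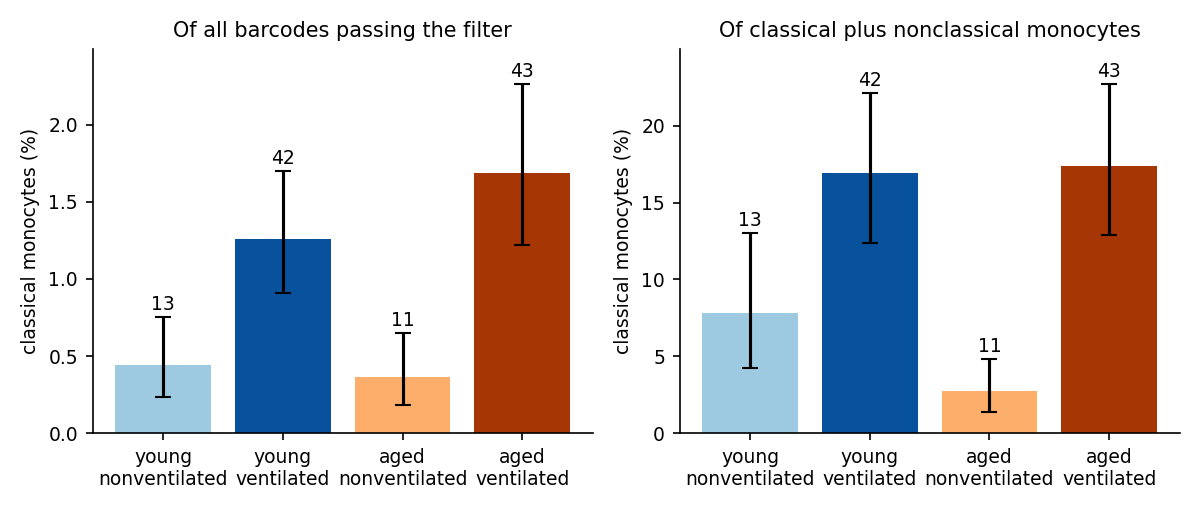
Classical monocytes as a percent of all cells passing the filter (left) and of classical plus nonclassical monocytes (right) in each library. Bars are shares, whiskers exact 95% Clopper-Pearson intervals and the numbers above them the classical monocytes counted (13, 42, 11 and 43); both ventilated bars stand above both nonventilated bars.

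Summed by library, the 109 cells carried transcripts of classical monocytes that the selection had not used, although not every cell held each of them. *Lyz2*, the lysozyme of myeloid cells, was detected in every cell of the 4 libraries at 18300, 12000, 17400 and 11510 CPM (UMIs of the gene per 1000000 UMIs summed over the classical monocytes of a library). *Fn1*, which encodes fibronectin, stood at 1609, 926, 1328 and 1605 CPM, against 112, 82.8, 145 and 71.6 CPM in nonclassical monocytes. Some cells of both nonventilated libraries and of the young ventilated library had no UMI of *Fn1*. *Plac8* was found in 13 of 13, 40 of 42, 11 of 11 and 43 of 43 cells. The share of other cells with *Lyz2* or *Plac8* is not given, so these cell counts describe detection only. Depth differed between the conditions. Median UMIs per classical monocyte were 13491, 19922.5, 14055 and 21207, with median gene numbers of 3500, 4401.5, 3681 and 4402. The classical monocytes of both ventilated libraries were thus deeper per cell, and those of each library summed to 180258, 932074, 141570 and 964118 UMIs. Over all cells passing the filter, median UMIs were 9974.5, 8994, 10753 and 10971.

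The selecting genes themselves varied among the libraries. *Ly6c2* stood at 838, 1628, 1271 and 994 CPM with medians of 5, 27.5, 5 and 16 UMIs per cell, and 1 aged nonventilated cell held 50% of that library's *Ly6c2*. *Ly6c2* shares most of its sequence with the neighboring *Ly6c1*, so reads of the pair could be assigned to either gene. *F13a1*, coagulation factor XIII subunit A, stood at 971, 2259, 1208 and 3303 CPM, and *Vcan*, the proteoglycan versican, at 871, 1823, 1166 and 2005 CPM. *Ccr2* stood at 1209, 612, 742 and 841 CPM. Both ventilated libraries were higher for *F13a1* and *Vcan*, and neither ordering held for *Ccr2*.

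To describe the response to ventilation, UMIs were summed over the classical monocytes of each library and compared for every gene that averaged 50 CPM or more in the pair and reached 20 UMIs in 1 library, the selecting genes set aside. A gene was counted when its CPM ratio, after 1 UMI was added to each sum, passed 2-fold. In young mice 414 of 3507 genes were higher (11.8%) and 489 were lower (13.9%) in the ventilated library. In aged mice 410 of 3496 genes were higher (11.7%) and 629 were lower (18%). The split into higher and lower genes differed under other treatments of depth, and thinning also lowered the number of genes compared. With every cell thinned to 3000 UMIs it was 251 higher and 88 lower of 1277 genes in young and 240 higher and 128 lower of 1250 in aged mice. With the sums thinned to equal size it was 283 and 255 of 1762, and 299 and 381 of 1815. With median-of-ratios scaling of the same genes it was 469 and 416 in young and 509 and 526 in aged mice. The percentages of the unthinned sums are the background for the gene groups below, which were counted by the same rule. The median-of-ratios scaling shifted the aged comparison by 0.13 on the log2 scale and the other 3 comparisons by less than 0.1.

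The same 5 genes, *Saa3*, *Spp1*, *S100a8*, *Lcn2* and *Cxcl2*, had the highest log2 ratios with ventilation at both ages. Their nonventilated counts were 0 to 2 UMIs, so their order among themselves was not determined. *Saa3*, an acute-phase serum amyloid A protein made by macrophages and epithelium, had 0 UMIs in both nonventilated libraries, 4474 UMIs in the young ventilated library and 5465 UMIs in the aged ventilated library. With the 0 taken as 3 UMIs, ventilated *Saa3* was at least 288-fold higher in young mice and at least 268-fold higher in aged mice. *Saa3* was found in 30 of 42 young ventilated cells (71.4%) and 33 of 43 aged ventilated cells (76.7%), and in 61.9% and 67.4% after every cell was thinned to 3000 UMIs. *Saa3* UMIs were also present in 18.5% and 16.3% of B cells of the ventilated libraries, a cell type that should lack them, at median depths of 9324 and 13151 UMIs. The gene lies at chr7:46711998-46715700 on the minus strand of GRCm38.

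*Spp1*, osteopontin, a secreted matrix protein of activated macrophages, had 0 UMIs in both nonventilated libraries and 1166 and 2027 UMIs in the young and aged ventilated libraries, at least 75.2-fold and 99.2-fold higher. The cells with *Spp1* were 30 of 42 and 26 of 43, or 52.4% and 41.9% after thinning, against 7.41% and 7.14% of B cells. In the young ventilated library 23 cells held both *Saa3* and *Spp1*, 7 held *Saa3* alone, 7 held *Spp1* alone and 5 held neither. In the aged ventilated library these numbers were 20, 13, 6 and 4. The values were spread widely over cells, since the cell with the most *Saa3* held 11.6% of the young and 27.0% of the aged ventilated UMIs.

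*S100a8*, a calcium-binding protein that pairs with S100A9 to form calprotectin, had 1, 1308, 2 and 1521 UMIs and was found in 27 of 42 young and 32 of 43 aged ventilated cells (45.2% and 48.8% after thinning), against 11.1% and 17.4% of B cells before thinning. The 4 cells with the most *S100a8* held 1047 of the young and 1009 of the aged ventilated UMIs. *S100a9* had 1, 31, 0 and 63 UMIs. The ratio of *S100a8* to *S100a9* UMIs was 42.2 (29.6–62.4) in young ventilated and 24.1 (18.8–31.6) in aged ventilated classical monocytes, whereas in neutrophils of the same libraries it was 0.803 (0.795–0.812) and 0.859 (0.852–0.867). One aged ventilated cell held 466 UMIs of *S100a8* and 45 of *S100a9*. Without the cell with the most *S100a8*, an alternative chosen after the data were seen, the ratio was 38 (25.6–59.0) in young and 58.6 (36.9–99.3) in aged ventilated cells. *Lcn2*, the siderophore-binding protein lipocalin-2, had 0, 470, 0 and 501 UMIs, at least 30.3-fold and 24.5-fold higher with ventilation. *Cxcl2*, a neutrophil-attracting chemokine, had 0, 408, 1 and 923 UMIs.

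The promoters of *Saa3* and *Cxcl2* are shown because neither gene had more than 1 UMI in a nonventilated library. They are the 250 bases before the RefSeq start on build GRCm38.p6, at chr7:46715677-46715926 (minus strand) and chr5:90903649-90903898 (plus strand). Capitals mark matches on either strand to TTGCNNAA (C/EBP), a pair of GAAA separated by any 2 bases (the interferon-stimulated response element, ISRE), TGANTCA (AP-1) and the NF-κB consensus. Among 32851 RefSeq promoters of this length, 9.56% held the C/EBP, 2.98% the ISRE, 6.75% the AP-1 and 7.25% the NF-κB letters.
Saa3: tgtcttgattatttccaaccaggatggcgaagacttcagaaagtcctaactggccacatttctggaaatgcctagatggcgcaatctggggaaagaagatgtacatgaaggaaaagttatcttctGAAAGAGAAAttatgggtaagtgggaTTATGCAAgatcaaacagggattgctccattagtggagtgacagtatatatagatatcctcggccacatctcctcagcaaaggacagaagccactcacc
Cxcl2: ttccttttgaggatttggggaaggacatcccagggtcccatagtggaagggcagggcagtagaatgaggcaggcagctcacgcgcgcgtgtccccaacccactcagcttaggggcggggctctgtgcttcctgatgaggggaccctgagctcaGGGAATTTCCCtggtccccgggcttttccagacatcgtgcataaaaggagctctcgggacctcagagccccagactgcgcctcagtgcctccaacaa
The *Saa3* window held an ISRE match that began 125 bases and a C/EBP match that began 99 bases before the start. The *Cxcl2* window held an overlapping pair of NF-κB matches that began 97 and 96 bases before it. A match describes the letters and not a bound site.

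**Figure D2:**
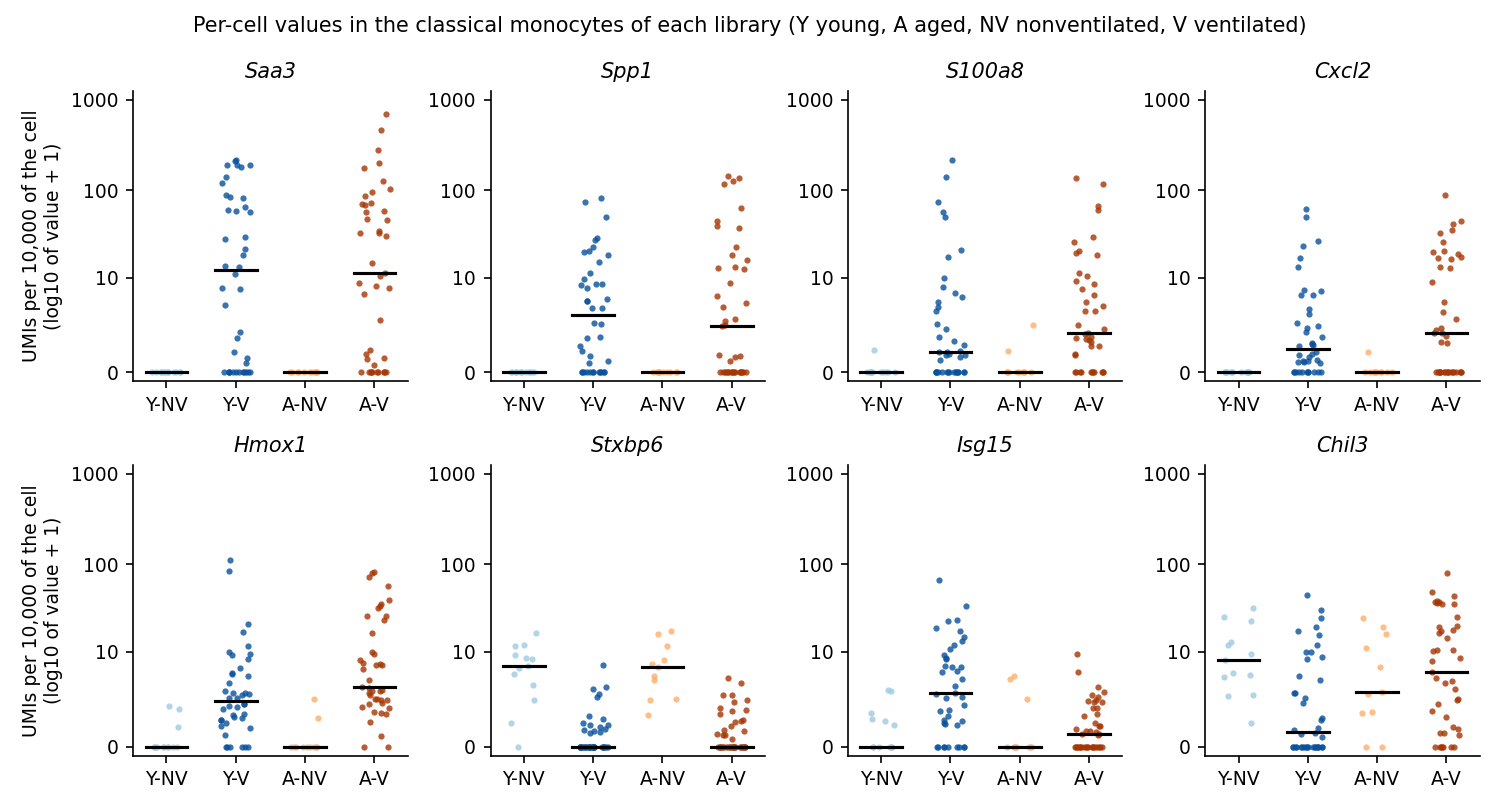
UMIs of 8 genes per 10,000 UMIs of the cell in each classical monocyte (points, log10 of value + 1) by library, with the median as a black line. *Saa3* and *Spp1* were at 0 in all 13 young and 11 aged nonventilated cells, *Stxbp6* was higher in nonventilated cells, and *Isg15* was highest in the young ventilated cells.

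Several secreted inflammatory mediators were higher in both ventilated libraries. Of the chemokine ligands, 4 of 6 genes compared in young and 4 of 7 in aged mice were past 2-fold higher, and *Ccl6* was lower in young mice. *Ccl2*, the ligand of CCR2, had 3, 554, 10 and 705 UMIs, 35.7-fold higher in young (12.2–174) and 10.3-fold higher in aged mice (5.6–21.7). *Cxcl10*, which attracts CXCR3-bearing lymphocytes, had 0, 168, 0 and 172 UMIs. *Ccl4*, a chemokine of activated macrophages, had 2, 347, 6 and 72 UMIs. The young ventilated library was therefore the highest for *Ccl4*, and the aged ventilated library was 4.99-fold below it (3.86–6.52), an order that did not hold with cells bearing *Adgre4*, *Cd300e* or *Treml4* kept (log2 ratio 0.18). *Il1b* was already present without ventilation, at 804, 1683, 1611 and 2246 CPM, 2.09-fold higher in young (1.76–2.5) and 1.39-fold higher in aged mice (1.22–1.6) with ventilation. *Tnf* had 11, 127, 2 and 192 UMIs, counts that are not scaled to the larger ventilated sums. As a CPM ratio, *Tnf* was past 2-fold higher at both ages. Its log2 ratio was 3.24 in aged mice and below the 1.56 of *Nfkbia* in young mice. *Nfkbia*, the NF-κB inhibitor that NF-κB itself induces, stood at 288, 868, 374 and 1418 CPM, 3.01-fold (2.27–4.06) and 3.79-fold (2.88–5.08) higher. Of the TNF and NF-κB feedback genes, 5 of 15 were higher and 2 lower in young mice, and 7 of 18 were higher and 1 lower in aged mice.

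Receptors for chemoattractants and for microbial or damage signals also held increases at both ages. Of the chemoattractant receptors, 4 of 7 genes were past 2-fold higher and 2 lower in young mice, and 6 of 7 were higher and none lower in aged mice. *C5ar1*, the receptor for the complement fragment C5a, had 5, 241, 0 and 297 UMIs, 9.32-fold higher in young (3.94–29) and at least 14.5-fold higher in aged mice. *Ccr1*, a receptor for CC chemokines, stood at 99.9, 278, 42.4 and 353 CPM. *Fpr2*, a formyl peptide receptor, stood at 33.3, 187, 49.5 and 135 CPM. Pattern recognition receptors were past 2-fold higher for 7 of 15 genes and lower for 2 in young mice, and higher for 4 of 16 and lower for none in aged mice. *Clec5a*, a C-type lectin that signals through DAP12, had 1, 198, 1 and 211 UMIs. It was seen in 38 of 42 young and 41 of 43 aged ventilated cells. Its shares in B cells and after thinning are not given, so these cell counts describe detection only.

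Antimicrobial proteins, matrix enzymes and genes of oxidative stress and heat shock held further increases. *Hp*, the hemoglobin scavenger haptoglobin, stood at 777, 2730, 480 and 2170 CPM, 3.52-fold (2.96–4.2) and 4.52-fold (3.55–5.84) higher with ventilation. Of the antimicrobial and granule genes, 5 of 14 were past 2-fold higher at each age, with 1 lower (*Chil3*) in young and none in aged mice. *Mmp14*, a membrane-bound matrix metalloproteinase, had 2, 176, 1 and 128 UMIs, and 4 of 9 matrix genes in young and 5 of 9 in aged mice were higher with none lower. *Hmox1*, heme oxygenase-1, had 5, 565, 3 and 1189 UMIs, 21.9-fold (9.31–67.6) and 58.2-fold (19.9–283) higher. It was the leading gene of an oxidative stress group in which 6 of 15 genes were higher and 2 lower at each age. The cytosolic chaperone *Hsp90aa1* stood at 122, 733, 148 and 521 CPM, and the mitochondrial chaperone *Hspd1* at 66.6, 253, 28.2 and 182 CPM. Heat shock genes were higher for 5 of 7 and 4 of 7 genes. Of the integrated stress response genes, 1 of 6 was higher and none lower in young mice, and none of 6 was higher and 1 lower (*Atf3*) in aged mice. The glycolytic enzymes *Gapdh* and *Ldha* were 2.71-fold (2.17–3.42) and 2.65-fold (1.82–4.01) higher in young and 2.39-fold (1.89–3.06) and 2.76-fold (1.89–4.2) higher in aged mice. *Sdc4*, a cell surface proteoglycan, had 1, 285, 0 and 361 UMIs. *Lpl*, the lipoprotein lipase, had 0, 303, 3 and 148 UMIs, at least 19.5-fold higher in young and 7.24-fold higher in aged mice (2.43–35.5).

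The largest decreases with ventilation were *Ypel3*, *Tppp3*, *Ighm*, *Stxbp6*, *Pdlim1* and *Ccdc88c* in young mice, and *Stxbp6* had the most UMIs among them. *Stxbp6*, which encodes the SNARE regulator amisyn, had 135, 48, 105 and 59 UMIs, 14.5-fold lower in young (10.4–20.7) and 12.1-fold lower in aged mice (8.73–17). It was found in 12 of 13 and 11 of 11 nonventilated cells but in 16 of 42 and 20 of 43 ventilated cells, or 69.2%, 16.7%, 81.8% and 18.6% in the usual order after thinning. *Ypel3*, a small nuclear protein, was the largest decrease at both ages, with 26, 7, 25 and 3 UMIs. The other largest decreases rested on few UMIs in young mice, with 20 and 6 for *Tppp3*, 20 and 6 for the immunoglobulin heavy chain gene *Ighm*, 34 and 13 for *Pdlim1* and 30 and 12 for *Ccdc88c*. In aged mice they included *Inpp4b* at 22 and 3, *Amz1* at 28 and 9 and *Dock1* at 23 and 9 UMIs, beside the class II genes *H2-Eb1* and *H2-Aa*.

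Of the immediate early transcription factors, 8 of 17 were past 2-fold lower and 1 higher (*Jun*) in young mice, and 11 of 16 were lower and none higher in aged mice. *Klf2*, which holds myeloid cells in a resting state, stood at 405, 113, 367 and 87.1 CPM, 3.6-fold (2.63–4.89) and 4.22-fold (2.92–6.03) lower. *Klf4* stood at 355, 95.5, 339 and 77.8 CPM, 3.72-fold (2.65–5.18) and 4.36-fold (2.97–6.34) lower. *Nr4a1*, which nonclassical monocytes need to form, stood at 477, 138, 339 and 152 CPM. Nonclassical markers were past 2-fold lower for 4 of 8 genes in young and 4 of 7 in aged mice, with *Fabp5* alone higher. The fractalkine receptor *Cx3cr1* stood at 139, 19.3, 106 and 16.6 CPM, the integrin *Itga4* at 655, 142, 657 and 166 CPM and the integrin *Itgal* at 255, 59, 198 and 87.1 CPM. In each of these the ventilated values lay below both nonventilated values. Cytokine receptors and SOCS genes were lower for 4 of 19 genes at each age with none higher, a share near the background of lower genes, and they included the interferon gamma receptor chain *Ifngr1*, 4.1-fold (3.12–5.38) and 2.99-fold (2.3–3.85) lower. *Apoe*, an apolipoprotein of macrophages, stood at 688, 268, 1342 and 315 CPM.

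Over the 3145 genes compared at both ages, the log2 ratios of ventilated over nonventilated correlated with Pearson r = 0.705 and Spearman rho = 0.632. This is a correlation across genes, which are not independent replicates, and depth differed in the same direction at both ages. Of the genes past 2-fold higher, 202 were higher at both ages, 53.7% of the 376 in young and 53% of the 381 in aged mice. Of those lower, 217 were lower at both ages, 55.4% of the 392 in young and 42.2% of the 514 in aged mice. Only 13 genes passed 2-fold in opposite directions.

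**Figure D3:**
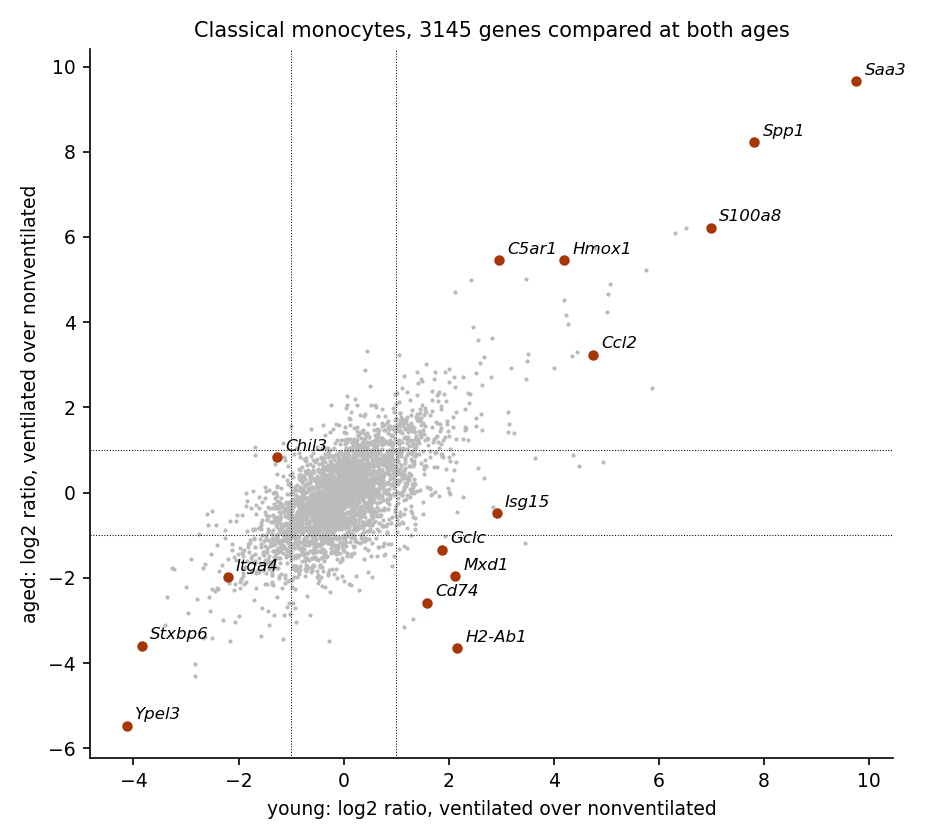
Log2 ratio of CPM, ventilated over nonventilated with 1 UMI added to each sum, in young (x axis) and aged (y axis) classical monocytes for 3145 genes, with 2-fold as dotted lines. Genes at 0 UMIs without ventilation, such as *Saa3* and *Spp1*, sit at a ratio set by the added UMI; *Cd74*, *H2-Ab1*, *Mxd1* and *Gclc* lie in the quadrant of opposite directions.

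UMIs of the small set of cycling genes named next were found almost wholly in the ventilated libraries, at 3, 555, 1 and 633. Cells with at least 5 UMIs summed over *Mki67*, *Top2a*, *Birc5*, *Cdk1*, *Ccnb1*, *Ccnb2* and *Ccna2*, a set chosen after the data were seen, numbered 0 of 13, 7 of 42 (16.7%, 6.97–31.4%), 0 of 11 and 10 of 43 (23.3%, 11.8–38.6%). The exact intervals of the 0 counts reach 24.7% among 13 cells and 28.5% among 11 cells, so an absence without ventilation was not detectable at this depth. *Top2a*, topoisomerase IIα of replicating cells, had 1, 188, 0 and 155 UMIs. The wider list of 18 cell cycle genes was present in every library, at 1936, 2945, 1469 and 2965 CPM. Of its genes compared, 3 of 7 were past 2-fold higher and none lower in young mice. In aged mice 5 of 8 were higher and 1 lower (*Pcna*). The cycling cells were deeper than the others, with medians of 33322 against 19564 UMIs in young and 24722 against 20866 in aged ventilated mice.

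The response of the classical monocytes was set beside that of other myeloid cells of the same libraries, which were chosen by their own marker genes. *Saa3* was higher with ventilation in each of them, at 0, 865, 0.471 and 1780 CPM in nonclassical monocytes, 0, 952, 0 and 485 CPM in interstitial macrophages and 0, 737, 0 and 913 CPM in neutrophils. The values in classical monocytes were 0, 4800, 0 and 5668 CPM. *Hmox1* likewise stood at 125, 1173, 77.5 and 1620 CPM in nonclassical monocytes. *Spp1* was arranged otherwise, since it stood at 0, 1251, 0 and 2102 CPM in classical monocytes and at 28.7, 174, 67.2 and 61.1 CPM in nonclassical monocytes, where the aged ventilated value did not exceed the aged nonventilated one. *Ccl2* stood at 16.6, 594, 70.6 and 731 CPM in classical, 10.2, 23.9, 9.19 and 28.5 CPM in nonclassical monocytes and 820, 2371, 176 and 1474 CPM in interstitial macrophages. Among the genes that were lower, *Stxbp6* was lower in nonclassical monocytes too, at 254, 4.99, 129 and 13 CPM, whereas *Itga4* stayed near 1357, 1477, 1448 and 1076 CPM there. None of these differences between cell types was tested.

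**Figure D4:**
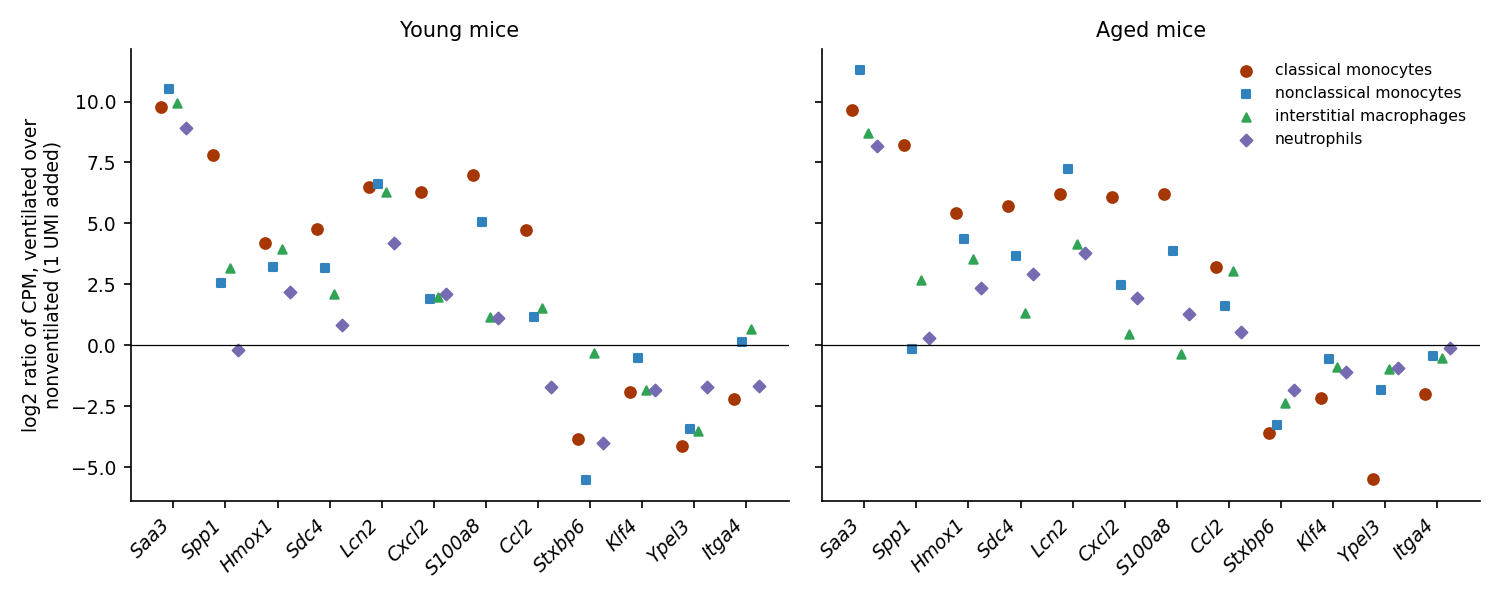
Log2 ratio of CPM, ventilated over nonventilated with 1 UMI added, for 12 genes in classical monocytes, nonclassical monocytes, interstitial macrophages and neutrophils of young (left) and aged (right) mice. *Saa3* is high in all 4 cell types, and *Itga4* is below 0 in classical but near 0 in nonclassical monocytes. *Spp1* is higher in classical than in nonclassical monocytes. The size of its classical ratio is set by the added UMI, since its nonventilated sums were 0.

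The ventilated libraries were then compared between the ages. Of 3464 genes compared, 28 were past 2-fold higher (0.808%) and 58 lower (1.67%) in aged ventilated than in young ventilated cells. With 200 to 5000 genes and UMIs within the 93rd percentile, which kept 23 and 19 of these cells, 91 of 3154 genes were higher and 191 lower. The leading increases included *Chil3*, *Mmp8*, *Rffl*, *Cd93* and *Ccnb2*. *Chil3*, a chitinase-like protein of monocytes and alveolar macrophages, had 208, 447, 108 and 1326 UMIs (1154, 480, 763 and 1375 CPM). The aged ventilated level of *Chil3* was 2.87-fold above the young ventilated level (2.57–3.2), and *Chil3* was 2.41-fold lower with ventilation in young (2.03–2.84) but 1.8-fold higher in aged mice (1.48–2.21). The young log2 ratio of *Chil3*, −1.27, was no longer past 2-fold under other limits on cells, at −0.58 without the *Flt3* limit, −0.41 without that on *Adgre4*, *Cd300e* and *Treml4*, −0.35 without both and −0.78 with at most 5000 genes and UMIs within the 93rd percentile. After thinning, 76.9%, 30.9%, 72.7% and 60.5% of cells held *Chil3*, against 3.57%, 3.70%, 6.67% and 10.2% of B cells before thinning. *Mmp8*, the neutrophil collagenase, stood at 99.9, 232, 91.8 and 663 CPM, 2.86-fold higher in aged than young ventilated cells (2.45–3.35). *Rffl* (62 and 170 UMIs), *Cd93* (41 and 112) and *Ccnb2* (28 and 76) rested on smaller counts. *Hmox1* was 2.03-fold (1.84–2.25) and *Cxcl2* 2.19-fold (1.94–2.46) higher in the sum of aged ventilated cells. *Cxcl2* was found in a smaller share of aged than of young ventilated cells, so its ratio describes the sums. Its largest values were 161, 161, 93, 78 and 64 UMIs in single aged cells and 97, 85 and 50 in single young cells.

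The largest decreases in aged ventilated cells were *Prkg1*, *Rsad2*, *Cp*, *Spon1*, *Kcnq5* and *AA467197*, and 4 of the 6 rested mostly on 1 young cell. That cell held 225 of the 227 young ventilated UMIs of *Prkg1*, a cGMP-dependent kinase of smooth muscle, and 124 of 130 for *Cp*, 87 of 124 for *Spon1* and 89 of 98 for *Kcnq5*. It also carried 10 UMIs of *Ly6c2*, 33 of *F13a1* and 309 of *Saa3* among its 36873 UMIs, and all 4 of the *Col1a2* UMIs, a collagen chain of fibroblasts, in the young ventilated cells. Without cells holding 3 or more UMIs of other lineages, the log2 ratio between the ventilated ages went from −6.88 to 0.01 for *Prkg1*, from −4.5 to −0.21 for *Cp*, from −3.68 to −0.51 for *Kcnq5* and from −4.21 to −2.92 for *Spon1*. The part of a second cell in that barcode was not tested. *AA467197* had 119 UMIs in young and 12 in aged ventilated cells, none of them in that cell.

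Many interferon-stimulated genes were higher in young than in aged ventilated cells. Against the 1.67% background of lower genes, 9 of 22 interferon-stimulated genes were past 2-fold lower in aged than in young ventilated cells and none was higher, with a median log2 ratio of −0.72 against 0.0067 over all genes. In young mice 13 of 25 were past 2-fold higher with ventilation and none lower (median 1.00 against −0.094 over all genes), and in aged mice 3 of 19 were higher and 3 lower (median 0.14 against −0.14). *Isg15*, a ubiquitin-like modifier, had 13, 544, 16 and 82 UMIs, 8.09-fold higher with ventilation in young mice (4.69–15.3), 1.33-fold lower in aged mice with an interval that includes 1 (0.726–2.29), and 6.86-fold lower in aged than in young ventilated cells (5.43–8.77). *Rsad2*, the antiviral enzyme viperin, had 0, 107, 3 and 2 UMIs, and 15 of 42 young and 2 of 43 aged ventilated cells held it (6 and 0 cells after thinning), against 11.1% and 4.08% of B cells of these libraries before thinning. *Irf7*, which amplifies type I interferon, stood at 305, 295, 134 and 99.6 CPM, 2.96-fold lower in aged ventilated cells (2.34–3.78), and *Zbp1*, a sensor of Z-form nucleic acid, at 94.3, 297, 91.8 and 108 CPM, 2.75-fold lower (2.19–3.49). For *Irf7*, 1 young nonventilated cell held 28 of 55 UMIs, and the log2 ratio of the nonventilated ages, −1.14, was −0.63 without the top cell of each library and 0.27 with cells bearing *Adgre4*, *Cd300e* or *Treml4* kept. The young ventilated library was the highest for *Isg15*, *Rsad2* and *Zbp1*. *Ifitm1* and *Ms4a4c* were higher with ventilation at both ages, *Ifitm1* from 1 and 0 to 348 and 202 UMIs and *Ms4a4c* 3.61-fold (2.79–4.77) and 3.15-fold (2.28–4.49).

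The young ventilated library was the highest for *Isg15* in other myeloid cells too. *Isg15* stood at 5.98, 186, 13.4 and 77.5 CPM in nonclassical monocytes, 21.7, 207, 14.0 and 65.3 CPM in interstitial macrophages and 213, 2701, 237 and 799 CPM in neutrophils. *Isg15* UMIs were found in 4.76%, 40.7%, 10.5% and 9.18% of B cells and in 46.1%, 78.6%, 27.3% and 55.8% of classical monocytes (30.8%, 59.5%, 27.3% and 25.6% after thinning). The young increase of *Rsad2* depended on the selection, because with *Flt3*-bearing cells kept its log2 ratio was −0.21 in young mice, while the ratio of aged to young ventilated cells stayed below −2. Age, the maximum on tidal volume and the pools of 3 mice cannot be told apart as sources of the difference between ages.

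The promoters of *Isg15* and *Rsad2* are shown because these genes had the largest decreases among the interferon-stimulated genes in aged ventilated cells. They are the 250 bases before the RefSeq start at chr4:156200819-156201068 and chr12:26456453-26456702, both on the minus strand of GRCm38.p6, with capitals as above.
Isg15: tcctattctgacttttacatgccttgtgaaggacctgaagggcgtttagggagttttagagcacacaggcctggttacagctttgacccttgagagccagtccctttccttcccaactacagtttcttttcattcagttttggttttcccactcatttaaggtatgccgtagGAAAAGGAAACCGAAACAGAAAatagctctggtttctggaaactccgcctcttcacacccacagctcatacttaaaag
Rsad2: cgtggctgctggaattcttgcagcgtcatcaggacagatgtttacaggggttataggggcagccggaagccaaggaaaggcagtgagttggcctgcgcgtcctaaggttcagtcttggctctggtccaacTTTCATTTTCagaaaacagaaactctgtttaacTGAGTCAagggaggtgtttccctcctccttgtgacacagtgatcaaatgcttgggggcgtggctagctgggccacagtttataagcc
The *Isg15* window held 3 overlapping ISRE matches that began 78, 72 and 66 bases before the start. The *Rsad2* window held an ISRE match that began 120 bases and an AP-1 match that began 87 bases before it.

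**Figure D5:**
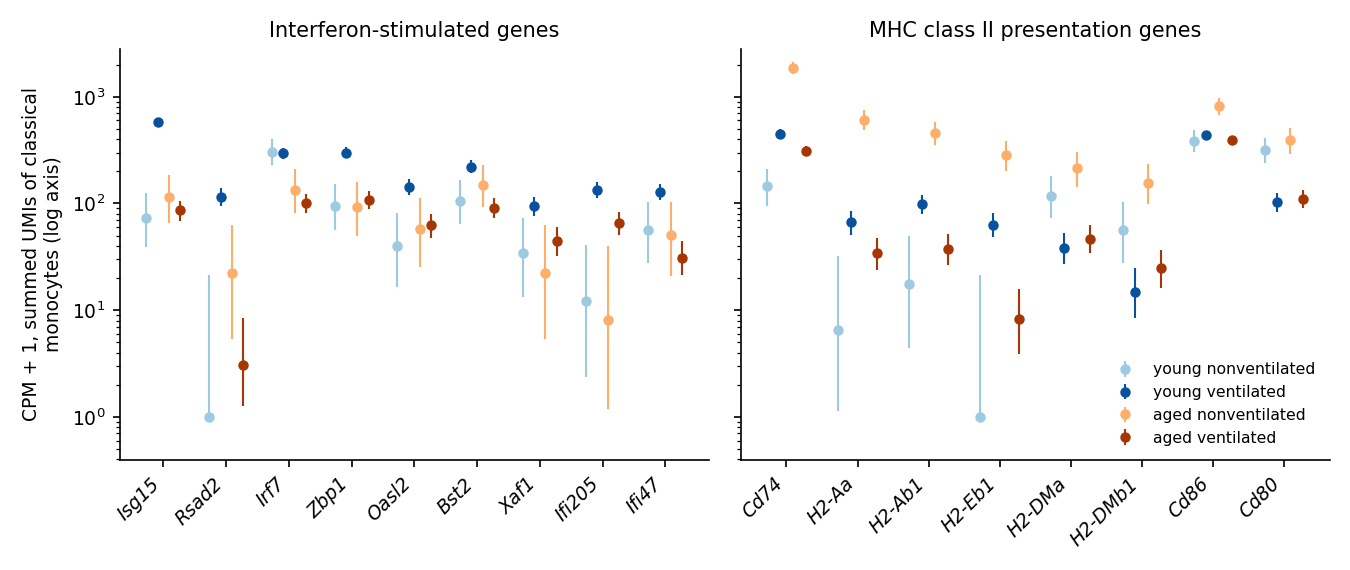
CPM + 1 (log axis) of 9 interferon-stimulated genes (left) and 8 class II presentation genes (right) in the summed classical monocytes of each library, with exact 95% Poisson intervals. The young ventilated library was highest for *Isg15* and *Rsad2*, and the aged nonventilated library was highest for *Cd74*, *H2-Aa*, *H2-Ab1* and *H2-Eb1*.

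The nonventilated libraries were compared over 13 young and 11 aged cells. Of 1925 genes, 156 were past 2-fold higher (8.1%) and 97 lower (5.04%) in aged cells. With cells bearing *Adgre4*, *Cd300e* or *Treml4* kept, 93 of 3501 were higher and 25 lower, and with *Flt3*-bearing cells kept as well, 44 of 3487 were higher and 8 lower. MHC class II genes, which present antigen to CD4+ T cells, led the increases, with 6 of 9 past 2-fold higher and none lower. *H2-Aa* had 1 UMI in young and 86 UMIs in aged cells, *H2-Ab1* 3 and 65, *H2-Eb1* 0 and 40, and the invariant chain *Cd74* 26 and 264. *H2-Aa* was found in 1 of 13 young and 6 of 11 aged cells, and 4 of the aged cells held 84 of the 86 UMIs. None of those 4 cells had a UMI of *Vcan*, but all held *Ccr2* (9, 5, 19 and 6 UMIs) and *F13a1* (16, 7, 29 and 3 UMIs). *Fn1* stood at 31, 21, 15 and 0 UMIs in them. Some nonventilated cells of both ages without *H2-Aa* also lacked *Vcan*. With ventilation, 8 of 9 class II genes were past 2-fold lower in aged mice, *H2-Aa* by 18.3-fold (12.1–28.4) and *Cd74* by 5.99-fold (5.06–7.09). The log2 ratio of *H2-Aa* in aged ventilation, −4.17, was −1.69 with cells bearing *Adgre4*, *Cd300e* or *Treml4* kept, and that of *Cd74*, −2.58, was −1.13. With 200 to 5000 genes and UMIs within the 93rd percentile, *H2-Aa* was −2.82 and *Cd74* −1.67. In young mice 2 of 6 class II genes compared were past 2-fold higher with ventilation (*H2-Ab1* and *Cd74*) and 2 lower (*H2-DMa* and *Cd80*), with a median log2 ratio of −0.32. Both higher genes turned lower under other selections, *H2-Ab1* from 2.15 to −0.32 and *Cd74* from 1.59 to −1.07 without the *Flt3* limit and to −3.26 and −1.97 without that on *Adgre4*, *Cd300e* and *Treml4*, and *H2-Ab1* to −1.23 without the top cell. In young ventilated cells *H2-Aa* had 61 UMIs, of which 1 cell held 90.2%. The class II difference between nonventilated ages narrowed when other cells were kept. The log2 ratio of *H2-Aa* was 5.79 by the selection, 2.43 with *Flt3*-bearing cells and 0.36 with cells bearing *Adgre4*, *Cd300e* or *Treml4*. MHC class I genes were not past 2-fold in any direction for the nonventilated ages, with 8 compared.

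The other leading increases in aged nonventilated cells were *Dapk1*, with 1 and 21 UMIs, and *Mxd1*, a MAX-binding repressor, with 3 and 38 UMIs. The leading decreases were *Arl13b* (22 and 2 UMIs), the kinase gene *Lrrk2* (35 and 4) and *Traf3*, an adaptor of TNF receptor and interferon signaling (60 and 9). With cells bearing *Adgre4*, *Cd300e* or *Treml4* kept, the log2 ratio of *Traf3* turned from −2.26 to 0.47 and that of *Mxd1* from 3.63 to 0.76, and with *Flt3*-bearing cells kept as well they were 0.63 and 0.50. Every one of these rested on fewer than 100 UMIs.

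The ventilation responses of the ages were then set against each other. By the difference of log2 ratios, aged minus young, the highest were *Ndufaf7* (3.32), *Sash1* (2.89), *Klhl5* (2.85) and *H1f0* (2.75), with 4, 1, 3 and 4 UMIs in aged nonventilated cells. The lowest were *Prkg1* (−10.69), *H2-Eb1* (−8.64), *H2-Aa* (−6.75) and *H2-Ab1* (−5.80). For *Prkg1*, the young UMIs were nearly all in the single cell described above and the aged nonventilated library held 10 UMIs, all in 1 cell, against 1 UMI in the aged ventilated library, and the 3 class II genes were high in aged nonventilated cells.

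Markers of other lineages differed between the conditions as well. They were summed in CPM over the marker list of each lineage. The 12 neutrophil markers summed to 155, 1762, 247 and 2139 CPM, led by *S100a8* in both ventilated libraries, and 5 of them were at 0 in all libraries. The 10 endothelial markers summed to 38.8, 135, 63.6 and 144 CPM, led by *Ednrb* with ventilation, with 1 at 0. The 10 epithelial markers summed to 122, 129, 184 and 85.1 CPM, led by the club cell gene *Scgb1a1*, with 2 at 0. The 12 lymphocyte markers summed to 122, 27.9, 106 and 36.3 CPM, led by *Ighm* without and *Il7r* with ventilation, with 7 at 0. The 10 fibroblast and mural cell markers summed to 122, 254, 91.8 and 63.3 CPM, led by *Gsn*, with none at 0, and the 10 red cell and platelet markers to 0, 25.8, 0 and 1.04 CPM, with 8 at 0. These sums stayed far below those of the 18 classical markers that the selection did not use, which summed to 34270, 29870, 30280 and 30210 CPM. Of the 17 such markers compared in young ventilation, 4 were past 2-fold higher and 3 lower (*Mgst1*, *Chil3* and *Gpr141*). Of the 17 compared in aged ventilation, 4 were higher and 0 lower. The 12 dendritic cell markers summed to 55.5, 187, 141 and 104 CPM, led by *Tcf4*, with 6 at 0, and the 10 alveolar macrophage markers to 5.55, 1.07, 28.3 and 7.26 CPM, with 5 at 0. The 16 nonclassical monocyte markers summed to 2347, 956, 2048 and 1109 CPM, led by *Itga4* without ventilation, and the 12 interstitial macrophage markers to 1209, 1064, 1992 and 1015 CPM, led by *Apoe* without ventilation, with 1 at 0. The part of these transcripts in the results above was not tested.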

How the data were processed

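The lungs of 12 mice were dissociated, cryopreserved, pooled by 3 and sequenced as 4 droplet libraries. The authors aligned and counted the reads with Cell Ranger 7.0.0 (submitters' processing notes) and deposited 1 filtered matrix of raw UMI counts per library, with 41222284, 44404172, 45218176 and 40655452 UMIs in the order used in the report. The matrices held 3630, 4497, 3901 and 3400 barcodes.

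Counts of the selected cells were summed per library and scaled to CPM. Because each group was 1 library, no test was run. Ratios carry conditional binomial, sums Poisson and shares Clopper-Pearson 95% intervals, and a count of 0 was replaced by 3 UMIs over the library for a lower bound. No doublet caller was run. The members, the 41 gene lists and the processing choices were chosen with earlier results of these data known. Named genes were the 6 largest increases and 6 largest decreases per comparison whose interval left out 1, the 4 largest differences of response in each direction, the 3 most abundant members and the largest ratio of each list, and the selecting genes. The text prints a part of these genes, chosen by role with their values known, and adds *S100a9* and markers of other lineages as context. Results for some genes are not reported here. Scripts used numpy 2.4.6 and scipy 1.17.1 for sums and intervals, pandas 2.3.3 for tables and matplotlib 3.10.9 for plots under Python 3.11.15, and were tested on simulated data. Promoters came from RefSeq on GRCm38.p6 and gene positions from GENCODE on GRCm38.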

Additional observations from a re-analysis of the deposited data

Results flagged for a closer look

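For 6 of the genes named here, all above the abundance limits at both ages, the ratio of ventilated to nonventilated cells lay beyond counting error in opposite directions in young and aged mice. The difference was not tested because each group was 1 library. *H2-Ab1* had a log2 ratio of 2.15 in young and −3.64 in aged mice, a difference of −5.80. The young value of *H2-Ab1* was −1.23 without the top cell of each library and −0.32 without the *Flt3* limit, so that its opposite directions were lost. *Cd74* stood at 1.59 and −2.58, a difference of −4.17, and its young value was −1.07 without the *Flt3* limit, whereas it was 1.69 without the top cell, which held 155 of the 419 young ventilated UMIs. *Traf3* stood at −1.0 and 1.55, a difference of 2.55. With cells bearing *Adgre4*, *Cd300e* or *Treml4* kept, *Traf3* stood at 0.21 and −0.33, and its young value was 0.20 without the top cell. *Mxd1* stood at 2.12 and −1.97, a difference of −4.09, *Gclc*, the catalytic subunit of glutathione synthesis, at 1.88 and −1.34, a difference of −3.22, and *Chil3* at −1.27 and 0.84, a difference of 2.11. These last 3 genes had opposite signs without the *Flt3* limit, without the nonclassical limit, without both and without the top cell, but several of these values lay within 2-fold. Without the nonclassical limit *Mxd1* stood at 0.67 and −0.98, *Gclc* at 1.61 and −0.47 and *Chil3* at −0.41 and 1.34, and without both limits they stood at 0.61 and −0.83, 1.56 and −0.45, and −0.35 and 1.07. Without the *Flt3* limit alone, aged *Gclc* was −0.88 and young *Chil3* −0.58. These recomputed gene ratios were all chosen after the data were seen. Other named genes, among them *Isg15* and *H1f0*, had log2 ratios of opposite sign whose interval included 1 at an age.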

How the results depend on the processing

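No paired analysis was possible because each group has 1 library. Nonventilated values rest on 13 and 11 cells, where 1 UMI is 5.55 and 7.06 CPM, and no value carries a spread between mice. Beside the shares and counts, 4158 recomputed values stayed the same, 502 moved and 28 reversed. The causes were not tested, except where fewer cells, UMIs or genes entered by construction.

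In the order used in the report, the shares were 1.42%, 3.68%, 0.889% and 3.68% of barcodes with *Ptprc*. They were 1.77%, 3.04%, 1.26% and 4.23% without the limit on *Adgre4*, *Cd300e* and *Treml4*, and 2.79%, 3.13%, 1.75% and 4.43% without that on *Flt3* as well. The young nonventilated share was 0.85% without the *Flt3* limit. With 200 to 5000 genes and UMIs within the 93rd percentile the shares were 0.535%, 0.836%, 0.463% and 0.969%. With the wider limits and every barcode thinned to 3000 UMIs first, they were 0.704%, 1.72%, 0.407% and 1.52%.

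Counts past 2-fold are given as young ventilation, aged ventilation, nonventilated ages and ventilated ages. With 3000 UMIs per cell they were 251 higher and 88 lower of 1277 genes, and 240 and 128 of 1250. Between nonventilated ages they were 19 and 18 of 361, and between ventilated ages 48 higher of 1482. With the gene and UMI limits above they were 283 lower of 3025 genes and 344 lower of 2718. Between ventilated ages these limits gave 91 higher and 191 lower of 3154. Equal sums gave 255 lower of 1762, 381 lower of 1815 and 58 higher of 1613 between ventilated ages. The mean of per-cell CPM gave 100.0 lower of 3458 between ventilated ages. A minimum of 20 CPM gave 776 higher of 5373, 707 higher of 5284, and 94 higher and 172 lower of 5809 between ventilated ages. A minimum of 100 CPM gave 214 and 233 of 1906, and 232 and 362 of 1970. It also gave 55 lower of 1814 between nonventilated ages and 12 and 15 of 1875 between ventilated ages. No minimum gave 1054 higher of 5784, 898 higher of 5686, and 153 and 270.0 of 6182 between ventilated ages. Adding 5 UMIs gave 223 higher of 3507, 199 higher of 3496 and 31 lower of 1925 between nonventilated ages. Without the nonclassical limit, nonventilated ages gave 93 and 25 of 3501 genes and ventilated ages 33 lower of 3420. Without the *Flt3* limit as well, aged ventilation gave 404 lower of 3517. Nonventilated ages then gave 44 and 8 of 3487 and ventilated ages 33 lower of 3425. Without the top cell of each gene they were 309 lower of 2990, 391 lower of 2960, 93 higher of 1444 and 37 lower of 3162.

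Reversed log2 ratios follow. In young ventilation, *H2-Ab1* was −0.32 and *Cd74* −1.07 and *Rsad2* −0.21 without the *Flt3* limit. Without the nonclassical limit *H2-Ab1* was −3.26, *Cd74* −1.97 and *H1f0* 0.20, and without both −2.97, −1.79 and 0.09. *H2-Ab1* was −1.23 and *Prkg1* −0.87 without the top cell, and *Prkg1* −1.25 and *Cp* −0.44 without cells holding 3 or more UMIs of other lineages. *Top2a* was −0.41 in young and −1.28 in aged ventilation without cycling cells. Those cells were chosen by a sum that includes *Top2a*, so its loss was fixed by the choice. *Traf3* was −0.33 and −0.27 in aged ventilation and 0.47 and 0.63 between nonventilated ages, and *Irf7* 0.27 and 0.08 there, without the nonclassical and without both limits. Between ventilated ages *Ccl4* was 0.18 and 0.16 and *H2-Ab1* 1.96 and 1.99 under these, *H2-Ab1* 1.79 without the top cell, *Klhl5* −0.23 with 3000 UMIs per cell and *Prkg1* 0.01 without cells of other lineages.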
